A study of Mus musculus with 7 samples.

Results

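RNA from laser-captured CA2 of the mouse hippocampus was compared between 2 extraction kits, the PicoPure RNA isolation kit and the QIAGEN RNeasy Micro kit. The comparison rests on 4 libraries, because each RNA was made into 1 NuGEN and 1 Clontech library, and PicoPure was set against QIAGEN within each library kit. Genes were taken if at least 2 of the 4 libraries held 10 or more of their normalized counts, which held for 13058 of the 41567 genes in the table. Of these, 10 mitochondrial and ribosomal RNA genes were left out and 13048 were tested. At the edge of this rule, *Cish* was the last gene inside, with NuGEN values of 24.99 (QIAGEN) and 2.81 (PicoPure) and Clontech values of 10.3 and 9.31. *Mapk12* was the first outside, with 9.995, 0, 15.4 and 0 in the same order.

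All 4 libraries came from untreated male Amigo2-GFP mice on a C57BL/6 background, 6 weeks old, whose brains were flash frozen for sectioning. In this line a transgene marks CA2 neurons with GFP. The labels do not say which mice or which captures gave each RNA, and each extraction is represented by 1 RNA sample, so the extraction kit, the mouse, the captured piece of tissue and the RNA quality cannot be told apart. In one experiment of the same study, CA1 was extracted with PicoPure and the adjacent CA2 with QIAGEN, whereas the labels of these 4 libraries give CA2 for all of them. RNA integrity values were not analysed here.

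CA2 is a short stretch of pyramidal neurons between CA3 and CA1, and it expresses *Rgs14*, a regulator of G protein signaling, and *Amigo2*, a cell adhesion gene, at higher levels than its neighbors. Laser capture cuts out a strip of tissue, so the RNA also holds that of glia, vessels and passing processes. Both library kits start from total RNA and remove ribosomal RNA, and therefore read nuclear RNA, unspliced transcripts and RNA without a poly(A) tail beside messenger RNA. Unspliced transcripts and long noncoding RNAs such as *Malat1* are held in the nucleus, whereas the messengers of ribosomal proteins and of actin lie mostly in the cytoplasm.

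Between 4548002 and 5194138 reads were assigned to genes in the NuGEN libraries and between 10176710 and 10417443 in the Clontech libraries. *Rgs14* (chromosome 13 of GRCm38, 55369732 to 55384687, + strand) had 4649 normalized counts from QIAGEN and 3849 from PicoPure RNA with NuGEN, and 3761 and 3465 with Clontech, which gave a log2 change of -0.20 ± 0.11 (± is the standard error of the fit throughout, limma adjusted p = 0.50). *Amigo2* had 2264 and 2237 counts with NuGEN and 3065 and 2645 with Clontech (-0.11, limma adjusted p = 0.80). Both genes were abundant in all 4 libraries. A library of another hippocampal field was not used here, so how far the PicoPure RNA held neighboring CA1 was not tested.

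Of the 13048 genes, 189 were higher and 41 lower in the PicoPure RNA, which is 1.45% and 0.314% of genes tested (limma on log2(normalized count + 1) with the library kit as a term, Benjamini-Hochberg adjusted p under 0.05). All 230 moved in the same direction in both kits, which the test itself favors, because disagreement between the kits adds to its spread. Of these, 185 of the higher and 41 of the lower genes averaged 100 or more normalized counts. There is 1 library for each combination of kit and RNA, so a p-value measures how well the 2 kits repeat the difference between these 2 RNA samples, with spread borrowed from other genes. The filter let through 198 genes that reached 10 counts only in both PicoPure libraries and 144 that did so only in both QIAGEN libraries, and 1 of the 230 calls was such a gene. With TMM scaling 174 genes were higher and 17 lower. On the sums of exon pieces 0 and 0 genes passed, against 819 at an unadjusted p under 0.05 and 1635 in the gene counts.

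The 2 kits repeated the difference for abundant genes more than for sparse ones. A 2-fold or larger difference in both kits was seen for 381 genes in favor of PicoPure (2.92%) and 267 in favor of QIAGEN (2.05%), but 442 genes differed 2-fold or more in opposite directions. Among the 7595 genes that averaged 100 or more normalized counts the numbers were 51, 15 and 6. The direction was shared by 56.0% of all tested genes and 59.9% of the abundant ones, and Pearson's r of the NuGEN and the Clontech differences was 0.098 and 0.270, as a description across genes, which are not independent replicates. For most genes, then, the size of the difference in one kit said little about its size in the other.

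**Figure D1:**
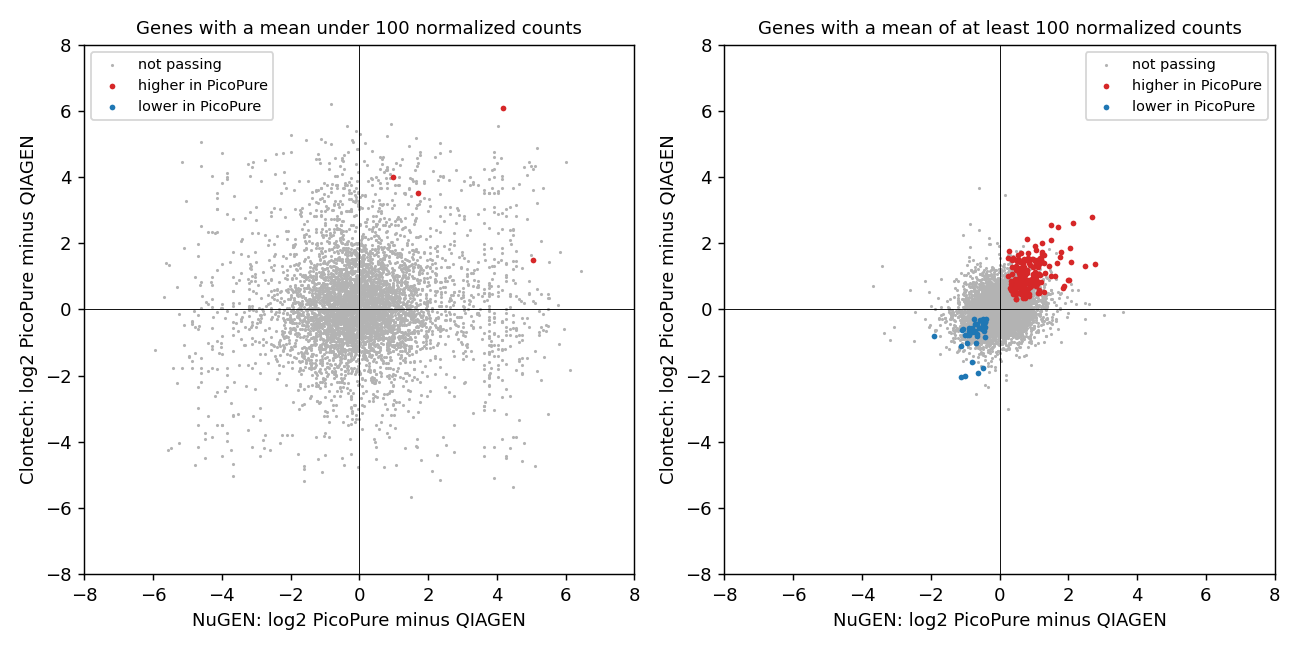
Each point is a gene, with its log2 difference of PicoPure minus QIAGEN in the NuGEN libraries on the horizontal and in the Clontech libraries on the vertical axis. Sparse genes (left) scatter widely in all 4 quadrants. Of all genes averaging 100 or more normalized counts (right), 59.9% share a direction. The 185 of them called higher and the 41 called lower lie in the quadrants of shared direction, which the test favors.

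RNAs known to stay in the nucleus were among those higher in the PicoPure RNA. *Rn7sk* (chromosome 9, 78175303 to 78175633, - strand), the 7SK RNA that holds back the elongation factor P-TEFb, had 68910 normalized counts from QIAGEN and 155646 from PicoPure RNA with NuGEN, against 750 and 2206 with Clontech. It rose in both kits by a log2 of 1.18 and 1.56 (fitted 1.37 ± 0.10, limma adjusted p = 2.8e-12), although its level was far lower in the Clontech libraries. *Rpph1*, the RNA of ribonuclease P, rose from 22794 to 32520 counts with NuGEN and from 961 to 1686 with Clontech (0.66). *Rmrp*, the RNA of the related RNase MRP, rose from 8882 to 16227 and from 172 to 238 (0.67). *Rpph1* and *Rmrp* were the only 2 of 16 tested small structured noncoding RNAs to pass, and the median of that list was 0.12. Of all tested genes 1.45% were called higher. *Rn7sk*, which is in no list, was singled out after its values were seen.

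Of 8 tested long nuclear noncoding RNAs, 4 rose, 0 fell and 4 did not pass, where 1.45% of all tested genes were called higher. The median log2 difference was 0.39 against -0.02 over all tested genes. *Malat1* (chromosome 19), a component of nuclear speckles, had 20404 and 31704 counts with NuGEN and 16936 and 26135 with Clontech, so both PicoPure libraries were above both QIAGEN libraries (fitted 0.63 ± 0.08 in log2, limma adjusted p = 3.2e-06). *Meg3* and *Rian*, imprinted noncoding RNAs of one cluster, rose by 0.65 and 0.45. *Kcnq1ot1*, the antisense RNA that silences an imprinted domain, rose from 351 to 744 and from 290 to 755 counts (1.23, adjusted p = 3.1e-04). The members that did not pass were *Neat1* (0.34), *Miat* (0.16), *Snhg11* (0.16) and *Peg13* (-0.19).

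On the sums of exon pieces *Malat1* was higher by 0.64 with NuGEN and 0.77 with Clontech, and *Kcnq1ot1* by 1.08 and 1.52, and both are listed with 1 exon. The list kept its median there, at 0.43. *Pnisr* and *Prpf38b*, which encode proteins linked to splicing, had gene reads that did not exceed the sum of their exon pieces in any library, and were picked after their values were seen. That does not exclude reads in introns, since 1 read adds to each exon piece it touches. *Pnisr* rose from 410 to 896 counts with NuGEN and from 330 to 797 with Clontech (1.20), and *Prpf38b* from 167 to 352 and from 74.6 to 213 (1.29, limma adjusted p = 0.049).

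Among called genes that averaged 100 or more counts, without predicted genes and clones, the largest rise was that of *Snhg14_v2*. Its name is that of the noncoding *Snhg14* locus, whose neuronal transcript runs antisense to *Ube3a*, with a suffix whose meaning is not given in the sources used here. With NuGEN it had 55.0 counts from QIAGEN and 357 from PicoPure RNA, with Clontech 116 and 818 (fitted 2.74 ± 0.32 in log2, limma adjusted p = 2.5e-07). Another row of that name, *Snhg14_v5*, had 9664 and 8082 counts with NuGEN and 6352 and 5708 with Clontech (-0.21, adjusted p = 0.39) and was looked up after the first. *Snhg14_v5* did not pass, and it was the more abundant in every library.

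**Figure D2:**
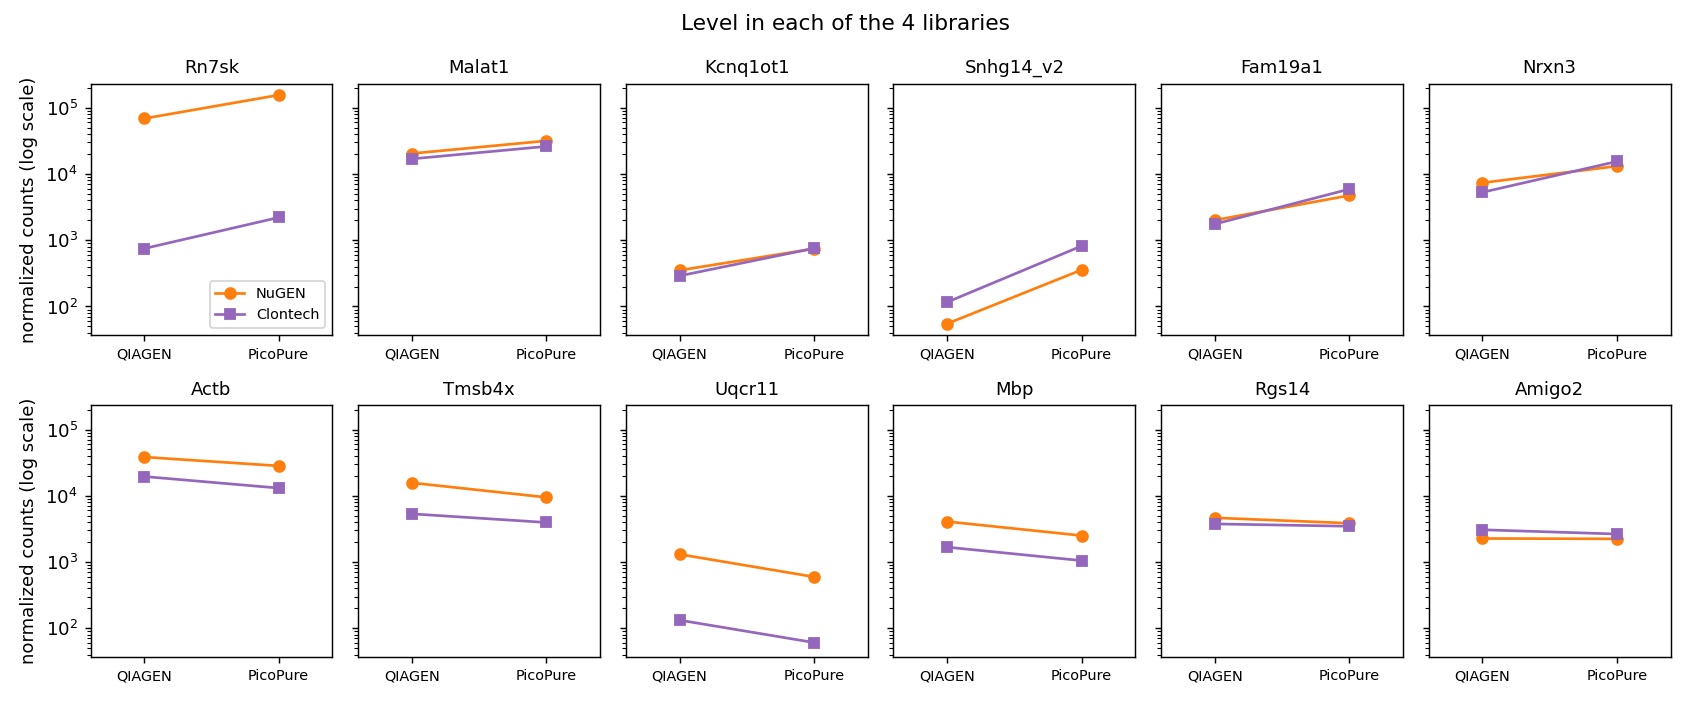
Normalized counts on a log scale for 12 genes, with the QIAGEN library on the left and the PicoPure library on the right of each panel, and 1 line for NuGEN (circles) and 1 for Clontech (squares). Both lines climb in the 6 upper panels (*Rn7sk*, *Malat1*, *Kcnq1ot1*, *Snhg14_v2* and the long genes *Fam19a1* and *Nrxn3*). Both fall for *Actb*, *Tmsb4x*, *Uqcr11* and *Mbp*, while *Rgs14* and *Amigo2* stay close to level. Not shown is *Snhg14_v5*, which was lower in PicoPure with both kits and did not pass.

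Long genes made up most of the genes that were higher in the PicoPure RNA and had a gene model. Of the 172 called genes with a matched gene model, 145 spanned more than 100 kb of the genome (84.3%), against 16.6% of the 12431 tested genes with a model, and their median span was 463 kb against 26.4 kb. The 40 lower genes with a model had a median span of 14.2 kb, and 4 of them exceeded 100 kb. Of the 19 tested synaptic adhesion genes, which encode proteins that join the 2 sides of a synapse, 13 rose and 0 fell, with a median log2 difference of 0.96 and a median span of 1135 kb. In the longest of 10 equal bins by span, 10.8% of genes were called higher, against 1.45% of all tested genes.

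*Nrxn3*, which encodes the presynaptic protein neurexin 3, lies on chromosome 12 from 88722876 to 90334935. It had 7373 and 13162 counts in the QIAGEN and PicoPure libraries of NuGEN and 5296 and 15454 in those of Clontech (fitted 1.19 ± 0.11 in log2, limma adjusted p = 2.0e-09). *Lsamp*, a limbic adhesion protein, had 6572 and 11019 counts with NuGEN and 7132 and 15180 with Clontech (0.92). The teneurins, large transmembrane proteins that bind latrophilins across the synapse, were higher as well: *Tenm3* rose from 353 to 1134 and from 535 to 1413 counts (1.54), and *Tenm2* and *Tenm4* rose by 1.35 and 1.01. Of the 19 tested adhesion genes 6 did not pass, among them the 2 below 0, *Nrxn2* (-0.16, 125 kb) and *Nlgn2* (-0.26, 14.7 kb). The part of length in this was not tested.

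Some genes of receptors and channels were higher as well. Of 22 tested glutamate receptor genes, 9 rose and 0 fell, at a median of 0.48. The share called higher was 1.45% of all tested genes and 10.8% in the longest of 10 equal bins by span. The kainate receptor gene *Grik2* rose from 433 to 845 counts with NuGEN and from 476 to 996 with Clontech (1.01), and the metabotropic receptor gene *Grm7* from 1099 to 1717 and from 994 to 1799 (0.75). Of 15 voltage-gated potassium channel genes 4 rose (*Kcnb2*, *Kcnd2*, *Kcnq3* and *Kcnq5*), and 2 of 12 sodium and calcium channel genes rose (*Cacna1c* and *Cacna1e*). Of 12 GABA-A receptor genes, *Gabrb1* alone passed, and the median of that list was 0.05, although its median span was 120 kb. The median span was 386 kb for the glutamate receptors, 59.7 kb for the potassium channels and 170 kb for the sodium and calcium channels.

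In many of these genes the added reads lay outside the listed exons. The excess of a gene's reads over the sum of its exon pieces is a lower limit of such reads, since 1 read adds to each piece it touches. *Fam19a1*, also called *Tafa1*, encodes a secreted brain protein and spans chromosome 6 from 96113154 to 96657198. It had 2009 and 4739 counts with NuGEN and 1754 and 5904 with Clontech (fitted 1.49 ± 0.13 in log2, limma adjusted p = 2.2e-10). The share of its reads beyond exon pieces was 49.3% with QIAGEN and 73.2% with PicoPure RNA in NuGEN, and 30.0% and 81.7% in Clontech, and its exon pieces differed by 0.32 and -0.04. *Dab1*, the adaptor of Reelin signaling, was higher by 1.15 and 1.37 in gene counts but by 0.04 and 0.07 in exon pieces. The potassium channel interactor *Kcnip4* showed the same, with 1.02 and 1.46 against 0.02 and 0.18, and *Lsamp* had -0.01 and 0.08 in exon pieces. *Dab1* and *Kcnip4* were chosen after their values were seen.

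Other long genes were higher in their exons too. *Tenm3* differed by 1.65 and 0.93 in exon pieces, *Lrp1b*, which encodes a lipoprotein receptor, by 0.77 and 0.81, and *Csmd3*, which encodes a protein with complement-control repeats, by 1.00 and 0.80. Over the 19 adhesion genes the median was 0.47 in exon pieces, and over the glutamate receptors it was 0.14. Of the 189 genes called higher, 152 were higher in exon pieces in both kits, with a median of 0.50 there against 0.90 in gene counts. Over all tested genes the median in exon pieces was -0.03. The exon pieces come from the same libraries that picked these genes, so they are not a separate check. *Gpc6*, a glypican, was higher by 1.76 in gene counts and lower by -0.32 in exon pieces, and *Kcnq5* turned from 0.48 to -0.095.

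Over all tested genes, reads beyond exon pieces made up 7.55% of the NuGEN QIAGEN library (Wilson 95% interval 7.53 to 7.58), 6.59% of NuGEN PicoPure (6.57 to 6.61), 1.28% of Clontech QIAGEN (1.27 to 1.29) and 4.60% of Clontech PicoPure (4.59 to 4.61). Without *Cmss1*, *Filip1l*, *Lpin2*, *Zc3h7a*, *Cdk8* and *Sspn*, 6 loci with large NuGEN pile-ups that were singled out after their values were seen, PicoPure was higher in both kits, at 2.51% against 1.31% with NuGEN and 4.56% against 1.24% with Clontech. In the longest of 10 equal bins by intron length, less the same loci, the shares were 5.24% and 9.99% with NuGEN and 3.25% and 14.1% with Clontech. In the 5 bins with shorter introns they were 0.249% and 0.231%, and 0.407% and 0.528%. The intervals cover counting error only, as PCR copies are not independent molecules. A median gene had 1.85 exon counts per read in NuGEN QIAGEN, 1.76 in NuGEN PicoPure, 1.498 in Clontech QIAGEN and 1.39 in Clontech PicoPure, so reads of PicoPure RNA covered fewer pieces, and the part of this in the shares was not tested.

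The difference between the RNA samples grew with length across the whole range of genes. In 10 equal bins by the length of the longest transcript, the median log2 difference climbed from -0.32 to 0.17 in the NuGEN libraries and from -0.21 to 0.12 in the Clontech libraries. Spearman's rho between the fitted difference and transcript length was 0.198 across 12431 genes and 0.335 across those with a mean of at least 100 counts, as a description across genes that are not independent. In exon pieces the median of the longest bin was 0.13 with NuGEN and 0.15 with Clontech, close to the gene counts of that bin. In the shortest bin it was -0.32 with NuGEN, but -0.04 with Clontech, against -0.21 in gene counts. The Clontech exon median was lower in the second bin, at -0.10, than in the shortest.

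Ordered by total intron length, the medians of the first 9 bins lay between -0.20 and 0.05 with NuGEN and -0.19 and 0.03 with Clontech, and the last bin, whose introns sum to 143 kb or more, stood at 0.25 and 0.31. Of the 1243 genes in this bin 132 were called higher (10.6%). In exon pieces their medians were 0.04 and 0.11. Transcript and intron length were separated in 3 equal bins each, over genes averaging 100 or more counts. In the bin with the shortest transcripts, the median difference was -0.23 with short and 0.02 with long introns. In the bin with the longest transcripts it was -0.05 and 0.15. In exon pieces the first pair was -0.22 and -0.15 and the second -0.02 and 0.08, so there the step between transcript bins was larger than that between intron bins.

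**Figure D3:**
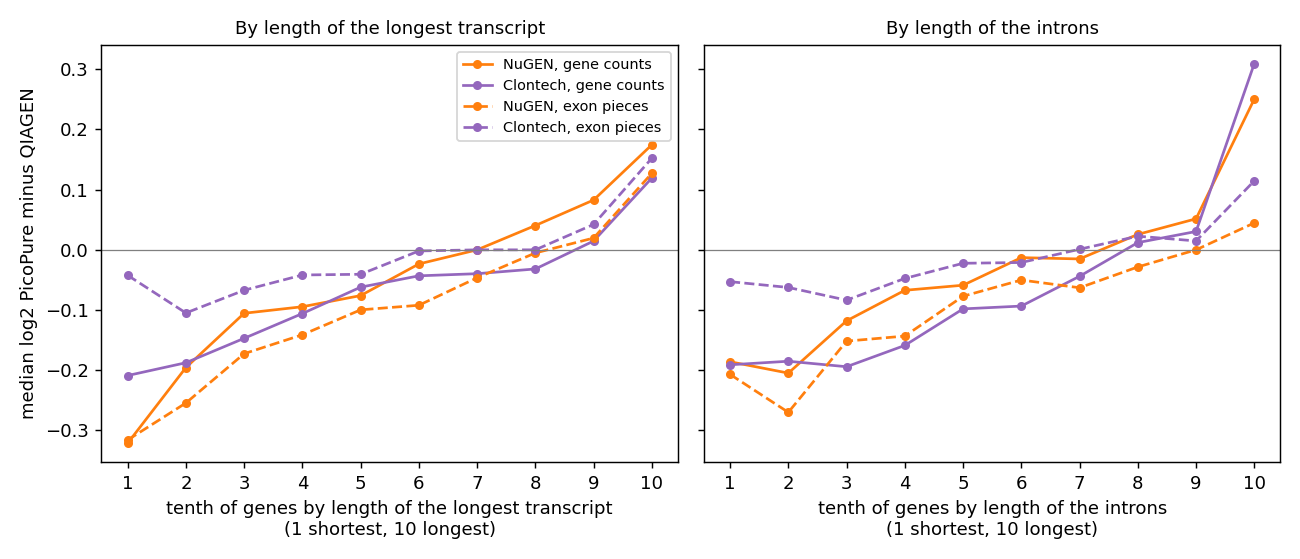
Median log2 difference of PicoPure minus QIAGEN in 10 equal bins of genes by the length of the longest transcript (left) and of the introns (right), for gene counts (solid lines) and sums of exon pieces (dashed lines) in each kit. By transcript length all 4 lines end between 0.12 and 0.17 in the longest bin. By intron length the gene counts of the last bin step up to 0.25 and 0.31 and the exon pieces to 0.04 and 0.11.

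Several abundant cytoplasmic messengers were lower in the PicoPure RNA. *Actb*, which encodes beta-actin, had 38420 and 28263 counts with NuGEN and 19514 and 13073 with Clontech (fitted -0.51 ± 0.08 in log2). *Tmsb4x*, which encodes the actin-binding thymosin beta-4, fell from 15688 to 9469 and from 5329 to 3953 counts (-0.58), and *Eef1a1*, the elongation factor that brings tRNA to the ribosome, from 10087 to 7489 and from 4771 to 3313 (-0.48). These 3 genes were looked up after their values were seen. Of the 41 genes called lower, 41 were also lower in exon pieces in both kits, with a median of -0.59 there and -0.69 in gene counts. Here too the exon pieces come from the libraries that picked the genes and are not a separate check.

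Chosen in the same way, the largest falls were those of *Ppdpf* (-1.59) and *Hcfc1r1* (-1.51, limma adjusted p = 2.3e-04). *Hcfc1r1*, which encodes a regulator of the transcription cofactor HCF-1, had 1949 and 962 counts with NuGEN and 184 and 45.3 with Clontech. *Uqcr11*, a subunit of respiratory complex III, had 1306 and 597 counts with NuGEN and 132 and 60.8 with Clontech, so each PicoPure library held less than its QIAGEN partner, by 1.13 and 1.11 (adjusted p = 0.019). *Usmg5*, a small ATP synthase component, fell from 2032 to 1063 and from 205 to 102 (-0.97). *Eif1*, which selects the start codon, fell by 0.89, and *Cst3*, the secreted protease inhibitor cystatin C, by 0.75. The rest of the 15 were *Khdc3* (-1.36), *Ppp1r11* (-1.27), *Mylk* (-1.20), *Rps25* (-1.13), *Map3k10* (-0.86), *Tagln3* (-0.85), *Mobp* (-0.83), *Scoc* (-0.82) and *Kpna6* (-0.78).

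Ribosomal protein genes lay below 0 almost throughout. Of 78 tested, 75 had a fitted difference below 0 and 60 were lower in both kits, with a median of -0.50. *Rps25* alone was called, where 0.314% of all tested genes were called lower. *Rps25* had 683 and 486 counts with NuGEN and 215 and 62.1 with Clontech. Of 75 nuclear-encoded genes of oxidative phosphorylation, 63 lay below 0 (median -0.32) and *Uqcr11* and *Cox6c* were called. The 74 mitochondrial ribosomal protein genes had a median of -0.30 with 0 called, the 15 glycolysis genes -0.17 and the 8 tubulins -0.21. The medians of these lists in exon pieces were -0.48, -0.31, -0.29, -0.14 and -0.20, and the short loci in them, with medians of 3.27 kb for the ribosomal proteins and 7.57 kb for oxidative phosphorylation, fell in the short bins above.

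Transcripts of the mitochondrial genome, which were fitted only in the setting that includes them, took 5.07% and 3.77% of normalized counts in the QIAGEN and PicoPure libraries of NuGEN, and 3.70% and 2.77% of those of Clontech. *mt-Nd1*, a subunit of complex I, had 99514 and 69189 counts with NuGEN and 214331 and 155317 with Clontech (-0.49, limma adjusted p = 3.7e-05), and *mt-Co1* was called lower as well (-0.41). The other 6 tested genes did not pass. *mt-Nd2*, *mt-Nd4* and *mt-Nd5* were lower with NuGEN, by 0.42 to 0.52, and higher with Clontech, by 0.08 to 0.55.

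Of the 8 tested dendritic messengers, 6 were lower in both kits and 1 was called, at a median of -0.16 (-0.09 with NuGEN and -0.31 with Clontech). *Camk2a*, the kinase subunit whose messenger is carried into dendrites, had 26955 and 26169 counts with NuGEN and 20061 and 17870 with Clontech (-0.10, limma adjusted p = 0.69). The called gene was *Ppp1r9b*, which encodes the spine protein spinophilin (-0.41). The 14 immediate early genes had 0 calls and a median of 0.20, from *Ier2* at -1.43 to *Egr2* at 2.04. The 11 heat shock genes had 0 calls and a median of -0.06, and 0 of 39 histone genes passed. Of all tested genes 1.45% were called higher and 0.314% lower, so few calls fall to lists of these sizes.

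The makeup of the captured tissue was read from marker lists. Of all tested genes 1.45% were called higher and 0.314% lower, so 0 calls in a short list carry little weight. Of the 10 CA2 markers 0 passed, and their median was 0.00, with 0.06 in NuGEN and -0.08 in Clontech. *Pcp4*, *Stard5* and *Fgf2* were not analysed here. Summed over the list, the CA2 level in NuGEN was 11233 counts for QIAGEN and 10726 for PicoPure, and in Clontech 11000 and 10314. *Map3k15* (0.52) was the highest of the list and *Avpr1b*, the vasopressin receptor of CA2, the lowest (-0.37).

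CA1 markers were higher in the PicoPure RNA in 7 of 8 cases, 6 of them in both kits, and 1 was called. *Fibcd1* had 112 counts from QIAGEN and 270 from PicoPure RNA with NuGEN, and 163 and 246 with Clontech (fitted 0.93 ± 0.35 in log2, limma adjusted p = 0.22). *Man1a*, a Golgi mannosidase, rose from 30.0 to 171 and from 80.4 to 200 counts (1.89, adjusted p = 0.035). *Mpped1* (1.24), *Gpr161* (0.85) and *Pou3f1* (0.81) also had positive differences in both kits. *Wfs1* was at -0.11 and 0.48 in the 2 kits, and *Spink8* was at -0.93 and -0.11. The median was 0.89 in gene counts and 0.96 in exon pieces. The median span of these genes was 31.8 kb, against 26.4 kb over all tested genes with a model, and the part of length in their differences was not tested.

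The summed CA1 markers came to 11.7% of the summed CA2 markers in the NuGEN QIAGEN library and 15.4% in NuGEN PicoPure, and to 9.04% and 16.1% in the Clontech libraries. In the 3 sheared NuGEN libraries (QIAGEN RNA, 16, 18 and 20 cycles of PCR), whose table was normalized by itself, this ratio within a library was 13.3, 9.95 and 9.42%. The PicoPure values thus lay above every QIAGEN value, although the QIAGEN values ran from 9.04 to 13.3%. The PicoPure libraries share 1 RNA sample, as do the NuGEN and Clontech QIAGEN libraries that were not sheared. The paper describes the mice behind the sheared libraries as a separate cohort. This order therefore sets 1 PicoPure RNA against QIAGEN RNAs that differ in mice and preparation, and the libraries are not replicates of an extraction. The log2 of the ratio differed by 0.40 with NuGEN and 0.84 with Clontech, and by 0.34 and 0.53 in exon pieces. With 1 RNA sample per extraction in the 4 libraries no test of this ratio between extractions was made, and its part in the other differences was not tested.

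Oligodendrocyte markers were lower in the PicoPure RNA, 11 of 11 in the fit and 9 of 11 in both kits, and 2 were called. *Mbp*, which encodes myelin basic protein, had 4078 and 2506 counts with NuGEN and 1675 and 1050 with Clontech (-0.69 ± 0.13, limma adjusted p = 0.001). *Mobp* fell from 581 to 312 and from 717 to 424 (-0.83), and *Cnp*, another myelin protein gene, had 343 and 194 and then 328 and 206 counts (-0.75, adjusted p = 0.24). *Mog* went opposite ways, with 63.3 and 145 counts with NuGEN and 89.4 and 21.1 with Clontech. The list had a median of -0.70 in gene counts and -0.73 in exon pieces. Its summed level was 7128 and 4372 counts with NuGEN and 4668 and 3213 with Clontech. In these bulk samples fewer cells of a type and less RNA per cell cannot be told apart.

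Astrocyte markers and those of the neuronal classes below had smaller median differences in the fit than oligodendrocyte markers. Of 12 astrocyte markers 9 were lower in both kits at a median of -0.27, with 0 calls, and *Slc1a2*, the main glutamate transporter, was at -0.14. The 8 markers of excitatory neurons had a median of -0.23, 7 of them lower in both kits and 0 called, with *Slc17a7*, the vesicular glutamate transporter, at 15194 and 12538 counts with NuGEN and 12502 and 10076 with Clontech (-0.29). The 11 interneuron markers had a median of 0.01, the 6 CA3 markers 0.12 and the 6 dentate granule cell markers 0.55, with 0 calls in each.

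Markers of microglia had a median of -0.62 (-0.005 with NuGEN and -1.05 with Clontech) and of endothelial cells -0.41 (-0.77 and 0.05). For oligodendrocyte precursors it was -0.64 (-0.35 and -1.22) and for mural cells 0.65 (0.45 and 0.41). In exon pieces these medians were 0.09, 0.06, -0.79 and 1.12 in the same order. All these lists had 0 calls and summed levels under 1200 counts in every library. Of the choroid plexus and ependymal list 4 genes were tested (median 1.02), and *Folr1*, *Aqp1* and *Ccdc153* were at 0 in all 4 libraries. *Ttr*, the leading choroid plexus transcript, had 21.7 and 32.3 counts with NuGEN and 0 and 3.10 with Clontech. The meningeal fibroblast gene *Col1a1* was at 0 in both QIAGEN libraries and at 32.3 and 11.2 counts in the PicoPure libraries, from 23 and 18 reads. It passed the filter through the PicoPure libraries alone, so its direction was fixed by that rule. *Igf2*, the only other tested gene of the 7 on that list, had 75.0 and 128 and then 10.3 and 34.1 counts. Of the red blood cell list 0 genes passed the filter.

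**Figure D4:**
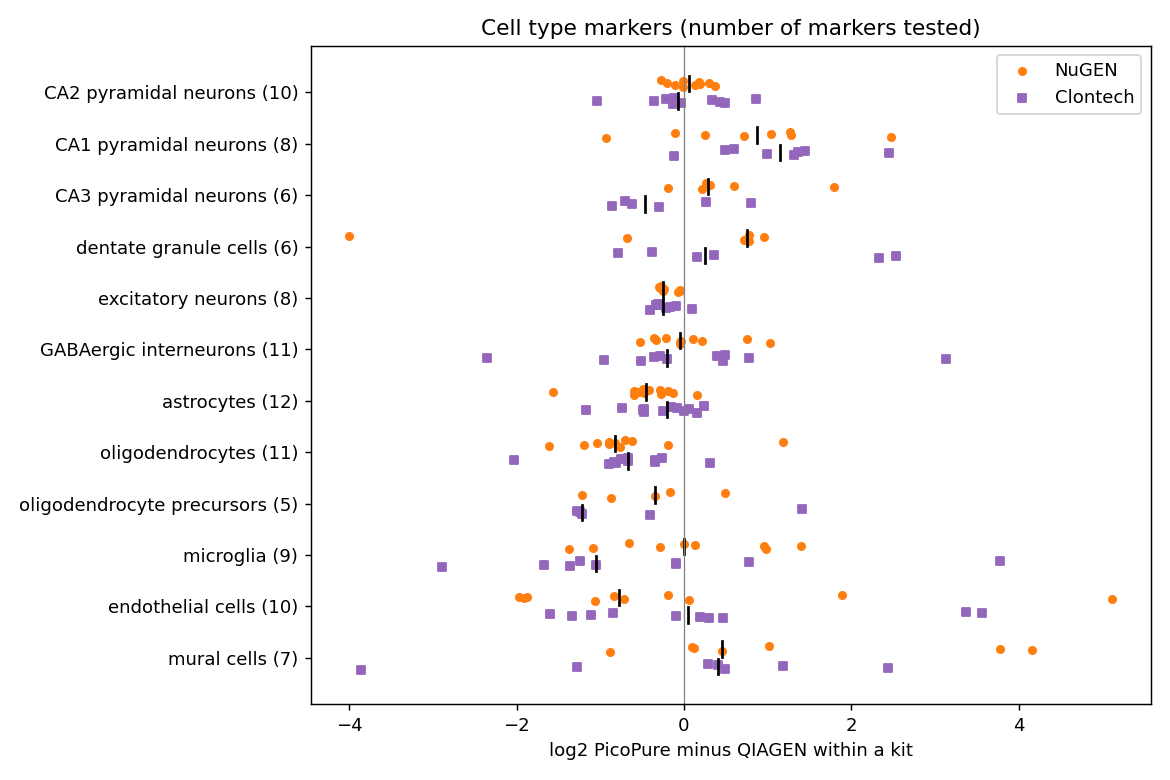
Log2 difference of PicoPure minus QIAGEN within NuGEN (circles) and within Clontech (squares) for each tested marker of 12 cell types, with the median of each kit as a black bar and the number of markers in parentheses. CA2 markers center on 0.06 and -0.08, CA1 markers on 0.88 and 1.15 and oligodendrocyte markers on -0.82 and -0.67.

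Several rows that carry the symbol of a miRNA were higher in the PicoPure RNA. The tested genes include 28 such rows with more than 2 listed exons, which are long host transcripts and not the mature miRNA, which these libraries do not resolve. Of these 28 rows 7 rose and 0 fell, with a median of 0.40, where 1.45% of all tested genes were called higher. The *Mir137* row, with 12 listed exons, had 378 and 883 counts with NuGEN and 245 and 979 with Clontech (1.61 ± 0.22, limma adjusted p = 4.3e-06). The *Mir181a-1* row, with 11, rose from 107 to 373 and from 147 to 497 (1.77), and the *Mir134* row, with 19, from 220 to 449 and from 138 to 526 (1.47). The group was put together after its values were seen.

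The remaining genes among the 15 with the largest rises were mostly large. *Hs6st3*, which adds sulfate to heparan sulfate, had 243 and 791 counts with NuGEN and 178 and 997 with Clontech (2.09), with 98.6% and 89.9% of its NuGEN reads and 72.6% and 90.2% of its Clontech reads beyond exon pieces. *Col11a1*, a fibrillar collagen gene of 190 kb, had 35.0 and 246 and then 118 and 307 counts (2.07), and its exon pieces differed by 2.71 and 1.07. *Nrg1*, the growth factor neuregulin 1, had 93.3 and 264 and then 63.0 and 274 counts (1.80), with exon pieces at -2.70 and 4.57. *Hmgcll1*, a lyase of leucine breakdown, was at 1.96, and *Egfem1* at 1.47. *Ptpn2*, a tyrosine phosphatase (2.03), and *Ttc14* (1.66) were the shorter loci of the set, at 59.1 and 15.03 kb. The median was 26.4 kb over all tested genes with a model. The gene reads of *Ptpn2* and *Ttc14* did not exceed the sum of their exon pieces, which does not exclude reads in introns.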

How the data were processed

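The authors trimmed reads, aligned them to mm10 with STAR 2.4.1d and counted them per gene and per exon piece of GENCODE with featureCounts. The signal values deposited by the authors are read counts scaled per library by DESeq2 size factors. Dividing each column by its smallest positive value gave whole reads for 100% of positive entries (tolerance 0.01 read). Because the values are normalized, limma 3.58.1 (R 4.3.3, lmFit and eBayes with a trend) was run on log2(normalized count + 1), with library kit and RNA as additive terms. This leaves 1 residual degree of freedom beside 36.2 prior degrees of freedom.

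The genes, lists and tests were chosen with earlier results of these data known, so no list was tested. In each direction the 15 largest differences were named among called genes of shared direction that averaged 100 or more normalized counts, without predicted genes and clones, together with *Rgs14*, *Amigo2*, *Fibcd1*, *Wfs1* and abundant members of each list (*Pcp4* was not analysed here). Other genes were added after their values were seen. The values of some list members are not reported here. Differences of exon pieces are on the log2(sum + 1) scale. Gene positions and lengths are those of GENCODE vM21 on GRCm38, the same build as mm10, matched by symbol for 95.3% of tested genes. Rows with several listed exons whose model has 1 exon (145) got no model. Of the genes called higher 91.0% had a model.

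Alternatives were TMM scaling, pseudocounts of 0.5 and 10, exon pieces, edgeR 4.0.16 and DESeq2 1.42.0 on the recovered reads, no library kit term, each library left out, other filters, thinning and mitochondrial genes included. Gene reads capped at the exon sum, the share without 6 loci and intron length were added after the data were seen. The scripts were tested on simulated data. Summaries and figures used Python 3.11.15, numpy 2.4.6, pandas 2.3.3, scipy 1.17.1 and matplotlib 3.10.9.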

Additional observations from a re-analysis of the deposited data

Results flagged for a closer look

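Some differences went opposite ways in the 2 library kits, and none of these contrasts was tested. The share of reads beyond exon pieces over all tested genes was lower in PicoPure RNA with NuGEN (6.59% against 7.55%) and higher with Clontech (4.60% against 1.28%), an order that turned with NuGEN when 6 pile-up loci were left out. The median of the CA3 markers was 0.29 with NuGEN and -0.46 with Clontech. *Foxj1*, a regulator of motile cilia, differed by 3.00 with NuGEN and by -1.50 with Clontech, on 2 to 33 reads per library. *Stxbp6* differed by -0.68 and 2.54, the histone gene *Hist1h4d* by -0.90 and 1.46, and the small Cajal body RNA *Scarna2* by -0.56 and 1.08 in the same order. Medians were singled out when both kits differed from 0 by at least 0.25 and genes when both did by at least 0.5. Each group holds 1 library, so no library could be checked against others of its group.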

How the results depend on the processing

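Genes higher and lower in the PicoPure RNA numbered 189 and 41. The count of lower genes was 17 with TMM scaling, 24 with edgeR and TMM, 73 with edgeR and DESeq2-type scaling, 8 (and 130 higher) after thinning to the smallest library, and 102 (and 240 higher) with 10 counts asked of all 4 libraries. DESeq2 called 146 and 35. Of the 230 genes, 190 were called with TMM scaling and 173 by DESeq2. With sums of exon pieces, the highest exon piece, reads capped at the exon sum or no library kit term, 0 genes were higher and 0 lower by limma, against 819, 773, 1033 and 238 at an unadjusted p under 0.05. With each library left out as well, the counts ran from 0 to 0. No count can be had from 1 kit alone.

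The relation with transcript length (0.198) was 0.335 for abundant genes, 0.147 with Clontech alone and 0.173 in exon pieces. The log2 difference of the CA1 to CA2 ratio (0.62) ran from 0.52 without *Man1a* to 0.90 without *Spink8*, and was 0.89 over marker medians. On exon sums *Gpc6* turned to -0.32 and *Kcnq5* to -0.095. Under the cap they were -0.38 and -0.066 and *Lsamp* was -0.018, and in the highest piece *Kcnq5* was -0.15. Where a library was left out, so that the kits were unbalanced without a kit term, the range was -1.57 to 0.073 for *Cst3*, -3.70 to 0.68 for *Hcfc1r1*, -2.37 to 3.71 for *Rmrp*, -1.62 to 2.94 for *Rpph1*, -2.61 to 0.34 for *Rps25*, -2.77 to 0.53 for *Uqcr11* and -2.65 to 0.72 for *Usmg5*. For the exon settings the cause was not tested.

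The library kit term is the pairing here and no replicate numbers are shared. No paired analysis was possible beyond it because each group has 1 library.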
